A study of Caenorhabditis elegans with 2 samples.

Results

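The Sm protein genes of Caenorhabditis elegans are 7 of the 19973 protein-coding genes of the nuclear annotation, snr-1 to snr-7, and all 7 were found in it. The list was chosen from earlier results on the same peak lists, in which snr-4 and snr-1 had a peak and which are therefore no independent evidence here, and every listed or candidate peak with its summit from 1000 bp upstream of the annotated start to the gene end was taken. The peaks come from chromatin immunoprecipitation with sequencing (ChIP-seq) of the ztf-29 protein, a member of the zinc finger family, in whole worms of strain RW12283 at the midembryonic stage (age 0 hour in the labels, embryos from egg bleaching). In this strain a TY1, EGFP and 3xFLAG tag was inserted by CRISPR at the endogenous ztf-29 gene, and the antibody was against GFP. The data form 1 group of 2 biological replicates, both with the tag, so no genotype, treatment or stage was compared and the peaks are averages over all cells of the embryo. Replicate 1 had 466 listed peaks among 38705 ranked candidates and replicate 2 had 802 among 43139, while the conservative list made from both had 814 among 54900 and the full list 1114 among 54286. A possible control experiment is named in the labels and was not analysed here, and the number of reads behind these lists is unknown.

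The Sm proteins form a ring of 7 different subunits on the spliceosomal small nuclear RNAs (snRNAs). The ring closes around a uridine-rich stretch of the RNA in the cytoplasm, with help from the SMN complex, and the assembled particle returns to the nucleus, where it removes introns. By homology to the human proteins, snr-1 encodes SmD3, snr-2 SmB, snr-3 SmD1, snr-4 SmD2, snr-5 SmF, snr-6 SmE and snr-7 SmG. In worms these proteins also take part in trans-splicing, which joins a spliced leader to the 5' end of many messages, and they are found on the germ granules of the embryo. Because trans-splicing removes the original 5' end of a message, the annotated start of a worm gene is often not where transcription begins, and the distances below are to the annotated end.

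Of the 7 genes, snr-4 and snr-1 had a listed peak, and both peaks lay upstream of the gene. They are shown here because every listed signal at a Sm gene comes from them. Sequences are from the RefSeq genome WBcel235, the same assembly as ce11, on the forward strand and 5' to 3', and capitals mark the 21 bases centred on the summit. The snr-4 peak is chrV:11979938-11980213 and the snr-1 peak is chrIV:17087472-17087747.
snr-4 peak: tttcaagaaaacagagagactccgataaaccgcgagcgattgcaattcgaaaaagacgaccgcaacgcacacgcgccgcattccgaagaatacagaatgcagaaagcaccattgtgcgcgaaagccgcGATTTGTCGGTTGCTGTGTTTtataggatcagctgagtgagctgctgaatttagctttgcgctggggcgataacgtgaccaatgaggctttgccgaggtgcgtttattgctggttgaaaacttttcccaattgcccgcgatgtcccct
snr-1 peak: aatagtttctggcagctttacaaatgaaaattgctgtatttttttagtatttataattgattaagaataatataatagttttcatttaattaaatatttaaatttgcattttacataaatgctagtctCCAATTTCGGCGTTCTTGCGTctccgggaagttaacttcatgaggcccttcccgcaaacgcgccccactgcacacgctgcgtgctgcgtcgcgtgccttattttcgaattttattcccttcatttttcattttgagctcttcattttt
Both peaks are 276 bp wide with the summit at base 139. The G and C content was 50% in the snr-4 peak and 35.1% in the snr-1 peak, against a median of 45.3% over the 814 conservative peaks. The longest word that the peaks share on either strand is AATTCGAAAA, 10 bases long. It starts 95 bp before the summit at snr-4 and 90 bp after it at snr-1, outside both marked centres. It stands in 0.715% of the 699 conservative peaks of the same width, in 1.23% of the 53956 candidates of that width that failed, in 1.43% of windows from 250 bp before to 50 bp after the 19973 protein-coding starts, and in 0 of those 7 windows of the Sm genes. Neither peak holds consecutive copies of the worm telomeric repeat unit TTAGGC.

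The summit at snr-4 lay beside a gene for an snRNA. Each peak carries a signal from the authors, whose scale is unknown, so values and ranks are read inside 1 list and not set against those of another. In replicate 1 the snr-4 peak had a signal of 82.1 and rank 82 of 466, and in replicate 2 a signal of 136.9 and rank 71 of 802. The conservative list held it at 223.6, rank 62 of 814. In the rankings of all candidates it stood lower, at 112 of 54900 in the conservative one. There it was at 143 of 38705 in replicate 1 and at 123 of 43139 in replicate 2. Some candidates with a higher signal are thus missing from the list that belongs to their ranking, and the reason is unknown. The replicates listed the snr-4 peak separately and close to the same base, with summits 8 bp apart. Its signal was 1.57 times the median of the list in replicate 1 and 1.99 times in replicate 2. The irreproducible discovery rate (IDR) is the expected share of irreproducible peaks among all those ranked at least as high, and 0.01 is its limit for a listed peak. At snr-4 the IDR was 4.85e-05 in replicate 1 and 2.98e-05 in the conservative ranking. In replicate 2 it was 1e-05, which is the smallest value the lists can hold. The gene snr-4 (WBGene00004917) lies on the reverse strand of chromosome V from 11978508 to 11979723, and the conservative summit at 11980076 is 353 bp upstream of its start. On the forward strand the snRNA gene C52E4.8 (WBGene00014291) runs from 11980118 to 11980261, so the same summit lies 42 bp upstream of the 5' end of the snRNA. In the replicates that distance was 46 bp and 38 bp. The summit also lies inside C52E4.14, an unclassified non-coding RNA of 143 bp on the same strand, 117 bp from its 5' end.

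**Figure D1:**
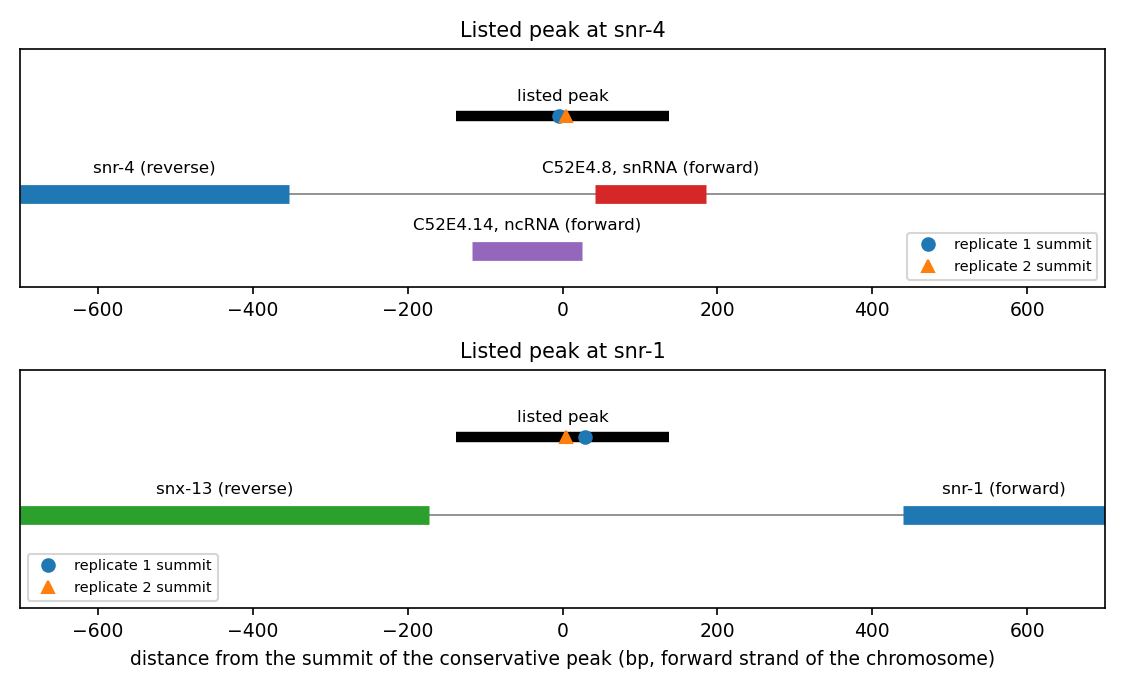
Genes around the listed peaks at snr-4 and snr-1, by distance in bp from the conservative summit; bars are genes with their strand, the black bar is the 276 bp conservative peak, and the circle and the triangle are the summits of replicates 1 and 2. The summit at snr-4 lies 42 bp from the 5' end of the snRNA gene C52E4.8 and 353 bp from the start of snr-4, and the summit at snr-1 lies 172 bp from the start of snx-13 and 439 bp from that of snr-1.

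The snRNA C52E4.8 is 144 bases long and is transcribed away from snr-4. It is shown with capitals at the word ATTTTTG, which starts at base 118 and is of the kind that Sm rings bind in RNA, written here as DNA. That word, searched on the strand of the RNA alone, is in 72 of the 129 annotated snRNA genes (55.8%). The annotated class includes genes of spliced leader RNAs, such as sls-2.1.
C52E4.8 gene: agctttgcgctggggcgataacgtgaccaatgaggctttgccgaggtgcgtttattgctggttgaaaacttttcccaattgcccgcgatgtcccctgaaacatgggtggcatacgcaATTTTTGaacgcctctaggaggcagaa
At least 90% of its bases are shared by 4 other annotated snRNA genes, all on chromosome V. T11F9.15 is identical, K03B8.10 and T11F9.16 each differ at 1 base, and F10D2.13, of 142 bases, is 95.1% identical. The word ATTTTTG starts at base 118 in all 5.

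The copies differed in their peaks and in the sequence upstream. Within 200 bp of T11F9.15, K03B8.10 and T11F9.16 none of the 4 rankings had a candidate. F10D2.13 had a candidate in each, with a signal of 14.1 and an IDR of 0.661 in replicate 1, of 18.2 and 0.907 in replicate 2, and of 38.5 and 0.574 in the conservative ranking, and no list held it. Thus C52E4.8, the copy next to snr-4, was the one copy of 5 with a listed peak. The handling of reads that match several copies is unknown, and its part in this difference was not tested. The conservative peak covers 96 bp of C52E4.8, which is 34.8% of its width, and its summit lies outside that gene. Compared base by base with the 100 bases upstream of C52E4.8, those of the other copies were equal at 34 to 42 positions. The 100 bases before each 5' end are printed on the strand of the snRNA, because the summit lies in them at C52E4.8 and they differ between the copies, and capitals mark bases -63 to -58 from that end.
C52E4.8 upstream: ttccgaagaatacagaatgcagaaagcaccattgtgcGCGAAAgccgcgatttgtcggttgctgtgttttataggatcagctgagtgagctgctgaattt
T11F9.15 upstream: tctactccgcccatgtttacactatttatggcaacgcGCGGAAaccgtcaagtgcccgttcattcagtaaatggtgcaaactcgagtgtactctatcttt
K03B8.10 upstream: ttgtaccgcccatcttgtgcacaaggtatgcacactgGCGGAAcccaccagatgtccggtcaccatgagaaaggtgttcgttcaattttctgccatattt
T11F9.16 upstream: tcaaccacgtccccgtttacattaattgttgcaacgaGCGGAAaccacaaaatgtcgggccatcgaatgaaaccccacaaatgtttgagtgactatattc
F10D2.13 upstream: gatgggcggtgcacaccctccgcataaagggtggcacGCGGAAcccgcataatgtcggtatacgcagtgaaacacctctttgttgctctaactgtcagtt
The word GCGGAA was the one word of 6 bases present in at least 4 of these 5 windows, on the strand of the snRNA. It starts at -63 bp in each of the 4 copies with no listed peak. C52E4.8 has GCGAAA there, which differs from the word by G4A, counted from 1 at the 5' end of the word. In the same 100 bases upstream, GCGGAA is in 34 of the 129 annotated snRNA genes (26.4%), 9 of them at -63 bp, and in 1.05% of 19973 protein-coding starts. Of the 11 snRNA genes with a conservative summit within 200 bp, 3 have the word, against 31 of the other 118. At -63 bp it is in 0 of the 11 and 9 of the 118. The 4 copies from which the word was taken are among these 9, and C52E4.8 is among the 11. The contrast at -63 bp is therefore partly set by the choice of the word and is no separate evidence. The words were found after the peaks were seen, and a match is a description of the sequence and no more. The snr-4 peak was the strongest of the 10 conservative peaks near a gene annotated as snRNA, followed by W05B2.8 with a signal of 216.5. This class also holds spliced leader RNA genes, and sls-2.9, sls-2.1, sls-2.4 and sls-2.2 are among those with a peak. Among the 11 is also mir-1831, by its name a microRNA gene, which shares 1 peak with sup-39, so the 10 peaks give 11 genes. The 11 and the 129 genes are therefore not all genes of spliceosomal snRNAs.

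The summit at snr-1 lay in a divergent promoter. In replicate 1 this peak had a signal of 48.4 and rank 294 of 466, and in replicate 2 a signal of 63.3 and rank 485 of 802. The conservative list held it at 116.6, rank 315 of 814, and the conservative ranking held it at rank 405 of 54900. It was weaker than the snr-4 peak in every list, and at 0.924 and 0.921 times the median of the replicate lists it stood slightly below their middle. Its IDR was 0.000388 in replicate 1, 0.00262 in replicate 2 and 0.000783 in the conservative ranking. The summits of the replicates were 24 bp apart. The gene snr-1 (WBGene00004914) lies on the forward strand of chromosome IV from 17088049 to 17088946, and the conservative summit at 17087610 is 439 bp upstream of its start. The gene snx-13, of the sorting nexin family of endosomal proteins, is transcribed away from snr-1, with 611 bp between the genes. The summit lies 172 bp upstream of the nearer annotated start of snx-13 and 213 bp upstream of its other start. No RNA gene lies within 200 bp of this summit.

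At both genes, then, the summit was closer to the 5' end of the divergent neighbour than to that of the Sm gene. Over all 679 protein-coding genes with a conservative summit in their window, 319 (47.0%) had their strongest summit nearest to the 5' end of another protein-coding, tRNA, snoRNA or snRNA gene. In a window starting 300 bp upstream, tried after the distances were seen, 0 of the 7 Sm genes had a listed summit, beside 2.39% of all protein-coding genes, so a count of 0 does not set these 7 apart. Neither the assignment to one gene of a pair nor an effect on expression can be read from these lists.

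Inside the bodies of the genes there were candidates that failed the IDR limit. The strongest was at snr-1, in an intron 114 bp downstream of the start, with a signal of 46.0 and rank 4713 of 54900 in the conservative ranking, and an IDR of 0.695. The replicates differed there. Replicate 2 had a signal of 38.9 at 94 bp, rank 2144 of 43139 and an IDR of 0.0926, whereas the nearest candidate of replicate 1, at 190 bp in a coding exon, had 12.5, rank 22714 of 38705 and an IDR of 0.939. At snr-4 the candidates in introns, 513 bp and 721 bp downstream, had signals of 11.8 and 19.6 and an IDR of 0.876 each. The first lies 103 bp from the piRNA gene 21ur-10927.

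**Figure D2:**
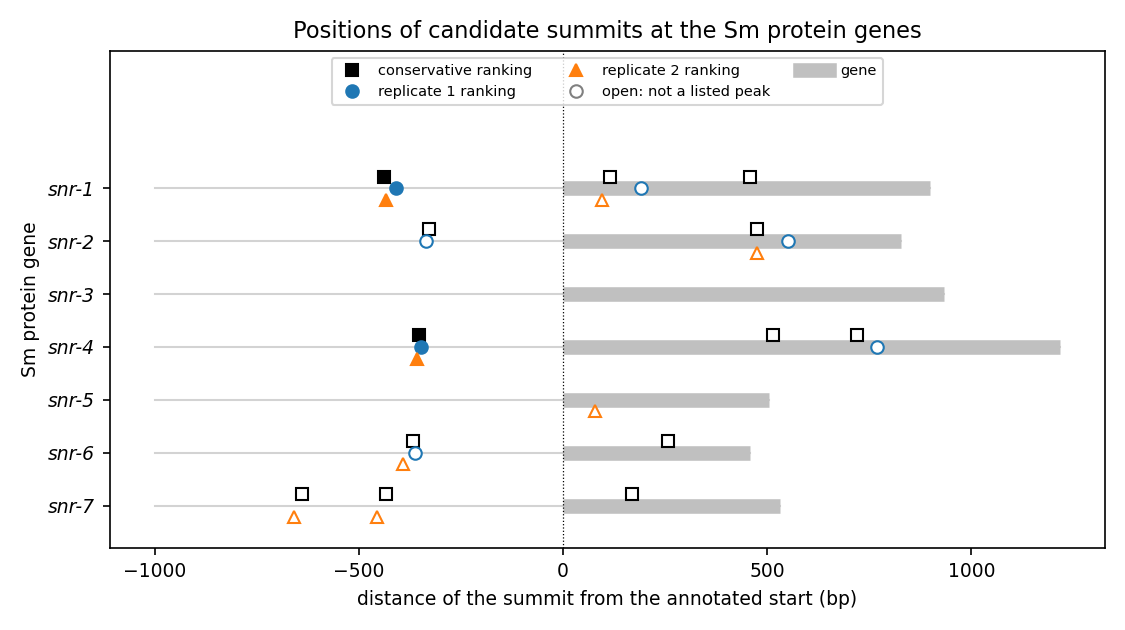
Distance in bp from the annotated start to each summit at the 7 Sm genes, with grey bars for the genes and lines for the 1000 bp upstream; squares are the conservative ranking, circles replicate 1 and triangles replicate 2, filled where the peak is listed. The filled marks stand upstream of snr-1 and snr-4, between 349 and 439 bp from the start, and snr-3 has no mark.

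The other 5 Sm genes had no listed peak in the conservative, full or either replicate's list. The same 2 of 7 genes (28.6%) were at a peak in all 4 lists. Since the list was chosen with this count known, the count is a description, has no interval and is no evidence of an excess over all genes. Over all 19973 protein-coding genes, the share with a listed summit in the same window was 3.40% in the conservative list, 4.45% in the full list, 2.12% in replicate 1 and 3.24% in replicate 2. Candidates of any rank were common. In the conservative ranking 5 of the 7 Sm genes had one, beside 71.1% of all genes, and in the full ranking 5 of 7, beside 71.1%. In replicate 1 there were 4 of 7, beside 68.7%, and in replicate 2 there were 6 of 7, beside 70.7%. The Sm genes are short, from 458 bp at snr-6 to 1216 bp at snr-4, which puts 5.08% to 25.0% of protein-coding genes below them in length, so their windows are shorter than most.

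SmB is the subunit with the long tail that snRNP particles carry, and its gene snr-2 (WBGene00004915, chromosome I, 13339397 to 13340224, forward strand) had the highest-ranked candidate among the 5 unlisted genes in the conservative ranking and in replicate 1, but not in replicate 2. The strongest in the conservative ranking lay 329 bp upstream, with a signal of 39.4, rank 8650 and an IDR of 0.458. Replicate 1 had a candidate 337 bp upstream with a signal of 17.9 and an IDR of 0.812, and replicate 2 had none upstream. A second candidate lay in a coding exon, 474 bp downstream, with a signal of 34.4 and an IDR of 0.611. In replicate 1 a candidate lay at 551 bp with a signal of 21, at 12.2% of the ranking, and in replicate 2 one lay at 474 bp with 18.1, at 61.6%. Its IDR of 0.0720 in the full ranking was the lowest of any unlisted candidate of the 7 genes in any ranking, and still above the limit of 0.01. In each replicate the higher signal at this gene was the one in the coding exon, whereas in the conservative and full rankings it was the one upstream, and neither place reached a list.

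SmE and SmF sit next to each other in the ring, and their genes are both on chromosome III. At snr-6, the SmE gene (WBGene00004919, 12429172 to 12429629, reverse strand), a candidate lay 368 bp upstream in the conservative ranking, with a signal of 28.8, rank 22122 and an IDR of 0.701. It was present in both replicates, with 10.2 at 362 bp upstream in replicate 1 and 20.7 at 393 bp upstream in replicate 2. It stood at 40.3% of the conservative ranking, at 79.0% of that of replicate 1 and at 46.0% of that of replicate 2. At snr-5, the SmF gene (WBGene00004918, 7862070 to 7862574, forward strand), only replicate 2 had a candidate, in a coding exon 78 bp downstream, with a signal of 20.5 and an IDR of 0.907.

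The remaining genes are those of SmG and SmD1. At snr-7, the SmG gene (WBGene00004920, chromosome I, 2727014 to 2727545, forward strand), the conservative ranking had candidates 639 bp and 435 bp upstream with signals of 27.4 and 8.6, and one 169 bp downstream in an intron with 16.4. Replicate 2 had candidates 659 bp and 455 bp upstream, with 23.1 and 12.5, and replicate 1 had none. At snr-3, the SmD1 gene (WBGene00004916, chromosome II, 6488830 to 6489761, reverse strand), none of the 4 rankings had a candidate. Its start lies 404 bp from the divergent gene rsp-5, which encodes an SR protein, a regulator of splicing. The nearest conservative summit to the start of snr-3 was 75.5 kb away, and in the full list it was 2.29 kb away with a signal of 60.5. Replicate 1 also listed one 2.35 kb away with a signal of 42.2, whereas in replicate 2 the nearest was 75.5 kb away. For snr-2, snr-5, snr-6 and snr-7 the nearest conservative summit was 41.7, 7.39, 29.6 and 87.2 kb from the start. In the full list and in replicate 2 it was 29.0 kb away for snr-2 and 13.6 kb for snr-7.

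**Figure D3:**
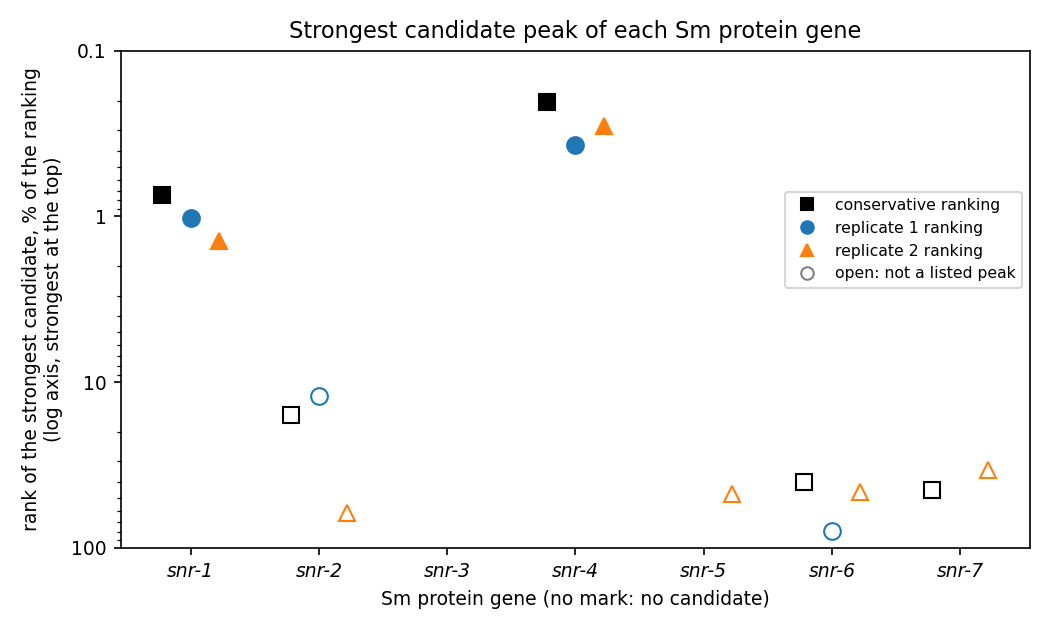
Rank of the strongest candidate of each Sm gene as a percent of its ranking, on a log axis with the strongest at the top; squares are the conservative ranking, circles replicate 1 and triangles replicate 2, filled where the candidate is a listed peak. The marks of snr-4 lie between 0.204% and 0.369% and those of snr-1 between 0.738% and 1.41%, and all others lie at 12.2% or lower in the ranking.

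The gap between listed and unlisted was wide at these genes. In the conservative ranking the 7 genes had 13 candidates, of which 11 were unlisted, with signals from 3.6 to 46.0, against 116.6 at the weaker listed peak. In replicate 1 the 5 unlisted candidates had signals of 10.2 to 21, below the 48.4 of snr-1, and in replicate 2 the 6 unlisted ones had 12.5 to 38.9, below its 63.3. Of the 11, 4 lay upstream and 7 inside a gene. No candidate of a Sm gene other than those of snr-4 had an snRNA gene within 200 bp.

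Other genes of the splicing machinery were at a listed peak in 4 of 60 cases (6.67%, exact 95% interval 1.85 to 16.2), beside the 3.40% of all protein-coding genes. These lists were written with earlier results of the data known. Of the 8 LSm genes, whose proteins form rings related to the Sm ring, lsm-3 had a peak, with a signal of 138.8 in the conservative list, 49.4 in replicate 1 and 84.3 in replicate 2. Its summit lay 926 bp upstream of lsm-3 and 47 bp from the start of the gene Y62E10A.23. Of the 19 genes in the list of other splicing factors, 3 had a peak. That of mog-5, a helicase gene of the DEAH family, had 166.9 in the conservative list, 63.9 in replicate 1 and 102.7 in replicate 2, 148 bp upstream of the start. That of mog-4, also of the DEAH family, had 125.7, 69.5 and 64.8 in the same order, 256 bp upstream. That of prp-19, the gene of a ubiquitin ligase of the spliceosome, had 129.7, 58.8 and 75.8, but its summit lay 672 bp upstream and 3 bp from the start of K10D2.5. So 2 of the 4, mog-5 and mog-4, had the summit nearest to their own start. All 4 were weaker than snr-4 in the conservative list and stronger than snr-1. None of the 21 genes for other proteins of snRNP particles, matched from 27 symbols, had a listed peak. Nor did any of the 8 SR protein genes or of the 4 genes for assembly and modification of the Sm ring, such as smn-1. Some SR genes were nearer to the IDR limit in the conservative ranking. There rsp-1 and rsp-2 shared a candidate with a signal of 65.6 and an IDR of 0.0455, and rsp-8 had 60.2 and 0.016. For rsp-3, rsp-4, rsp-6 and rsp-7 the IDR was 0.757 to 0.876, and rsp-5 had no candidate. The looser IDR limit tried for the Sm genes was not applied to these other sets. The upper ends of the exact 95% intervals were 16.1% for the snRNP set, 36.9% for the SR set and 60.2% for the assembly set. These intervals, and that of the 60 genes, describe counting error only, as if the genes were independent draws. They do not cover the uncertainty of peak calling.

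The genes with the most similar ranks over the conservative list and both replicates were taken among 292 protein-coding genes listed in all 3. For snr-4 the most similar was snx-17, with ranks 60, 72 and 68 and a summed difference of 15, followed by F55A11.6 and F55A11.11, which share 1 peak, with ranks 70, 75 and 72 and a summed difference of 16. For snr-1 the most similar were ifet-1, a translational regulator, and rps-1, a protein of the small ribosomal subunit, which share 1 peak with ranks 317, 304 and 486 and a summed difference of 13. The next was C34E10.10, with ranks 300, 264 and 487 and a summed difference of 47, at a peak it shares with atp-2 and C34E10.12.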

How the data were processed

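ChIP-seq peak lists of 2 replicates of 1 group were used. Per the deposited readme, each list derives from the alignments of 1 or both replicates on ce11 and at least 1 further file of unstated type. For the aligner and the peak caller, the names are not given in the labels or files. The signal deposited by the authors is the peak caller's value per peak. By its values, the deposited score is the IDR rescaled to at most 1000, and the ranked lists hold a further score read as minus log10 of the IDR, at most 5. Start, end and summit offset are in bp, and summits are printed counted from 1.

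Summits were placed on Ensembl release 115 genes (WBcel235, the same assembly), with RNA names and sequences from RefSeq. Ranks are by signal within a list. The strongest candidate per gene was taken, and identity of snRNAs was from global alignment. RNA genes were counted within 200 bp of a summit. Intervals, given for the other splicing genes only, are exact (Clopper-Pearson). No test was made, since the members and lists were chosen with earlier results of these data known. Of 69 other splicing symbols, 60 genes were matched. Named genes were all members, other splicing genes at a listed peak, snRNA genes near a summit, genes with a start within 1000 bp of a member's listed summit and the 3 nearest in rank to each listed member. The snRNA copies and words were named after their values were seen. Window counting was tested on simulated data with planted summits. Python 3.11.15, numpy 2.4.6, pandas 2.3.3, scipy 1.17.1, biopython 1.88, pyfaidx 0.9.0.4 and matplotlib 3.10.9 were used.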

Additional observations from a re-analysis of the deposited data

How the results depend on the processing

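The count of 2 Sm genes with a listed summit was the same in the full list and in each replicate's list (2 to 2 with either replicate left out). It was also the same with 500 bp upstream to 100 bp downstream of a start, with 2000 bp upstream and with any overlap of 1 bp. IDR limits of 0.01 and 0.05 and the stronger part of the conservative list gave the same count. The stronger part was taken of the conservative list only, where snr-1 had 1.15 times the median. In the replicate lists snr-1 had 0.924 and 0.921 times the median. The count was 0 with 300 bp upstream, an alternative added after the data were seen. The 1 listed peak near an snRNA gene was also found within 500 bp, while 0 had the summit inside one. The other splicing genes at a peak were 4 in the full list and in each replicate's list, but 2 with 500 bp upstream to 100 bp downstream of a start. No paired analysis was possible because there is a single group. The strongest candidate of snr-2 stood at 15.8% of the conservative ranking, and at 61.6% without replicate 1 and 12.2% without replicate 2. Depth is unknown and there are 2 replicates, so an unlisted gene is not shown to be free of the protein.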
